A study of Mus musculus with 9 samples.

Results

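The 9 genes described here, *Ifit1*, *Ifit3*, *Oasl2*, *Rsad2*, *Bst2*, *Isg15*, *Usp18*, *Irf7* and *Zbp1*, are classic targets of type I interferon, and they were taken by symbol from a table of 55291 genes measured by RNA-seq of the mouse main olfactory epithelium. All 9 were in the table and all 9 passed the filter on low counts, which 23225 genes passed. The epithelium came from 3 wild-type mice, 3 *Ms4a* cluster knockout mice and 3 *Ms4a6c* knockout mice, one library per mouse. All mice were 8 to 12 weeks old and, per the labels, C57BL/6. The wild-type mice were described as littermate controls, but the sources used here do not say from which knockout line they came. The cluster knockout lacks the whole *Ms4a* gene family, which was removed with CRISPR/Cas9, and the *Ms4a6c* knockout lacks a single member of that family, deleted by homologous recombination. Both deletions are carried in the germline, so neither is restricted to the olfactory neurons that use MS4A proteins as receptors, and the 1 wild-type group served both knockouts. The comparisons ask whether losing the whole family, or *Ms4a6c* alone, was accompanied by a different interferon-stimulated gene level in the tissue.

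Type I and type III interferons are secreted when a cell senses viral nucleic acid. Their receptors signal through JAK kinases to transcription factors that bind an interferon-stimulated response element in the promoters of many genes. Many of those genes also have a low resting level without infection, and the nasal mucosa, which meets inhaled viruses first, is a tissue in which that resting level is of interest. IRF7 feeds back on the pathway by driving transcription of the interferon genes themselves, and USP18 restrains it at the receptor.

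To show what these promoters share, the core of the response element was searched in 300-base RefSeq promoters (GRCm38.p6, 250 bases before to 50 bases after each start). The search was for the letters GAAA, then any 2 bases, then GAAA again, on both strands. Of the 9 genes, 7 matched a promoter (*Usp18* and *Zbp1* did not), and 5 of the 7 held the letters. Among all promoters the share was 3.443%, and by gene it was 3.993% of 27025 genes. Of 59 other interferon-stimulated genes with a promoter, 34 held it. *Irf7* and *Oasl2* held none in this window. The 5 stretches that hold the element run from 180 to 31 bases before the start and are printed 5′ to 3′ on the gene's own strand. Capitals mark every match of the element or of its reverse complement.
Ifit1, chr19:34640709-34640858, plus strand: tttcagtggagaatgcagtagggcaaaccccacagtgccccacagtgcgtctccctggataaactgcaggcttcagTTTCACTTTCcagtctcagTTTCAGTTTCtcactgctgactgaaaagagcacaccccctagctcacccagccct
Ifit3, chr19:34583349-34583498, plus strand: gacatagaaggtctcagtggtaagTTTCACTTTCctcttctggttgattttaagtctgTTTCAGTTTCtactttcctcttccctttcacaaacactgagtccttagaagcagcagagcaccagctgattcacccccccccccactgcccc
Isg15, chr4:156200849-156200998, minus strand: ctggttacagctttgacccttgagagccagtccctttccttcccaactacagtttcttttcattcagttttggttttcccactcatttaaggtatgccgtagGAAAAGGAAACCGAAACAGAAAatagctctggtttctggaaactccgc
Rsad2, chr12:26456483-26456632, minus strand: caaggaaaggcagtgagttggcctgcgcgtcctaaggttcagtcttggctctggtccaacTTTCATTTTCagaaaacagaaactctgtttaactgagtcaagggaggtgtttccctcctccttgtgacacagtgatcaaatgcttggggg
Bst2, chr8:71537503-71537652, minus strand: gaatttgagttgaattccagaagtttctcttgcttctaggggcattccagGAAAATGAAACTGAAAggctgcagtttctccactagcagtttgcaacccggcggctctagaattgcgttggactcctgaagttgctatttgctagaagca
*Ifit1* and *Ifit3* each carried a pair of separate matches, first met 104 and 85 bases before the start in *Ifit1* and 156 and 122 bases before it in *Ifit3*. *Isg15* carried 3 matches that overlap in one run beginning 78 bases before the start. *Rsad2* had a single match at 120 bases, and *Bst2* had an overlapping pair at 130 and 124 bases. A match is a description of the letters and not of binding.

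The libraries held 13954591 to 21987174 expected counts. Levels are given as CPM (counts scaled to a fixed library total) after correction by the trimmed mean of M-values (TMM), and a log2 fold change is the first group minus the second. Wild type mouse 1 and cluster knockout mouse 2 stood apart from the other 7: the nasal gland transcripts *Bpifb9a* and *Bpifb9b* took 14.2% and 13.7% of their counts, against 0.036% to 3.5% elsewhere. Their TMM factors were 0.702 and 0.704, against 1.07 to 1.13, so their scaled levels are high relative to plain library size, and the counts of the 9 genes whose groups did not overlap are given both ways. As a check of the labels, *Ms4a6c* had 54.0 to 90.3 expected counts in the wild-type mice, 0 in all 3 cluster knockout mice and at most 2.35 in the *Ms4a6c* knockout mice. The tissue label held, with olfactory sensory neuron markers (*Omp*, *Gng13*, *Adcy3*, *Cnga2* and *Gnal*) summing to 8019 to 10336 CPM and sustentacular cell markers to 5321 to 7537 CPM.

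All 9 genes were expressed at rest, over a wide range of levels. Per kilobase of the longest annotated transcript, the wild-type mean was 20.2 CPM per kb for *Ifit1*, whose product binds viral RNA that lacks proper cap methylation. *Bst2*, the tetherin that holds budding virions at the cell surface, followed at 7.53 and *Ifit3*, a partner of IFIT1, at 5.97. *Isg15*, a ubiquitin-like modifier, stood at 4.60, *Usp18*, the protease that removes it, at 4.08, and *Oasl2*, an oligoadenylate synthetase-like protein, at 3.42 CPM per kb. Lower still were *Irf7* at 1.66, *Rsad2*, which encodes the radical SAM enzyme viperin, at 0.821 and *Zbp1*, a sensor of Z-form nucleic acids, at 0.420. Neighbours in the middle of this order did not differ beyond their spread: the wild-type mice overlapped between *Bst2* and *Ifit3*, between *Ifit3* and *Isg15* and between *Isg15* and *Usp18*. The order also rests on transcript length. With the median transcript in place of the longest, *Oasl2* came to 12.8, *Usp18* to 11.4 and *Irf7* to 6.60 CPM per kb, all above *Ifit3*. *Ifit1* at the top and *Rsad2* and *Zbp1* at the bottom held their places on either length.

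**Figure D1:**
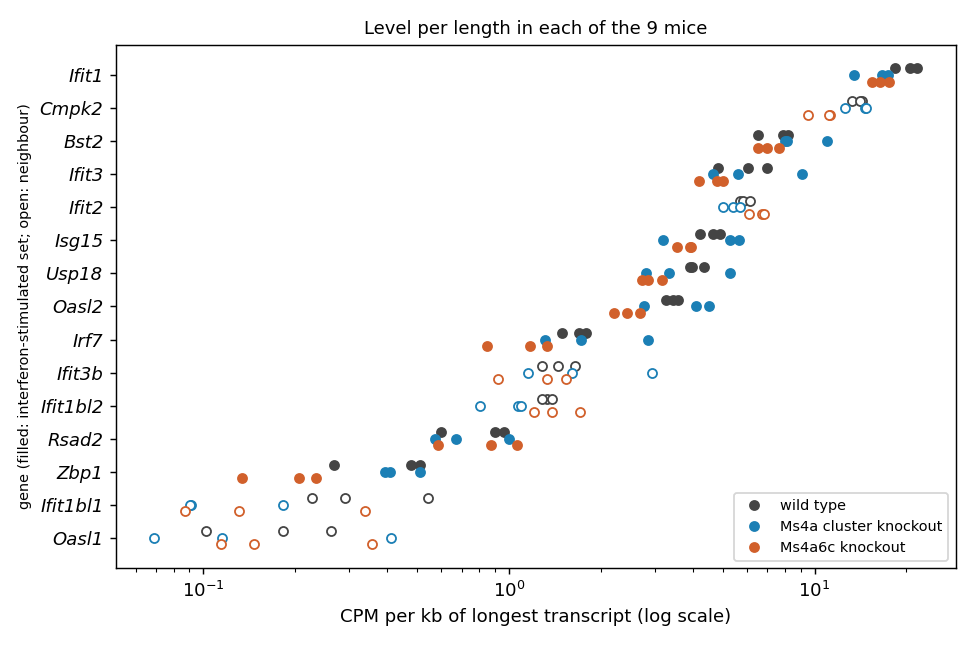
Level of each gene in each of the 9 mice, in CPM per kilobase of the longest transcript on a log axis, with filled points for the 9 interferon-stimulated genes and open points for their paralogs and neighbours. Colours give the genotype. *Ifit1* lies highest, at a wild-type mean of 20.2, and *Zbp1* lowest of the 9, at 0.420, with *Cmpk2*, the neighbour of *Rsad2*, at 13.9.

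Among the sensor and transcription factor genes, the *Ms4a6c* knockout mice had the lowest means on the TMM scale, on which the values of single mice are given. *Irf7* stood at 5.47, 4.83 and 5.80 CPM in the wild-type mice, at 4.26, 9.27 and 5.56 CPM in the cluster knockout mice and at 4.30, 3.78 and 2.74 CPM in the *Ms4a6c* knockout mice. Every *Ms4a6c* knockout value lay below every wild-type value, and cluster knockout mouse 2 was the highest of the 9. *Irf7* overlaps *Phrf1* on the opposite strand, so without the strand setting of the counting its counts are uncertain. All 9 *Irf7* counts were whole numbers, so no division of reads with *Phrf1* is seen in them. *Zbp1* stood at 1.71, 0.888 and 1.59 CPM in the wild-type mice, at 1.30, 1.69 and 1.35 CPM in the cluster knockout mice and at 0.779, 0.682 and 0.446 CPM in the *Ms4a6c* knockout mice. All 3 *Ms4a6c* knockout values lay below the other 6 mice. *Zbp1* was also the most thinly counted of the genes, with 7 to 28 expected counts per mouse, so its ratios carry the largest counting error.

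The 5 antiviral effectors did not share one pattern. *Ifit1* stood at 57.6, 48.8 and 54.6 CPM in the wild-type mice, at 46.3, 44.1 and 35.8 CPM in the cluster knockout mice and at 46.5, 43.4 and 41.0 CPM in the *Ms4a6c* knockout mice. Both knockout groups lay wholly below wild type and overlapped each other. *Ifit3* was at 8.46, 10.6 and 12.2 CPM, then 8.12, 15.8 and 9.82 CPM, and then 8.73, 8.37 and 7.33 CPM in the same order of groups. All 3 groups overlapped for *Ifit3*, and it differs from *Ifit3b* by little: the transcripts were 97.8% identical over 1700 aligned bases, so reads could be divided between them, and none of the *Ifit1* or *Ifit3* counts was a whole number. *Oasl2* stood at 10.7, 11.2 and 10.2 CPM in the wild-type mice, at 8.62, 14.1 and 12.8 CPM in the cluster knockout mice and at 7.58, 6.89 and 8.41 CPM in the *Ms4a6c* knockout mice. As with *Zbp1*, the 3 *Ms4a6c* knockout mice were the lowest of the 9.

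The other effectors gave groups that overlapped wild type. *Rsad2* was at 3.77, 4.05 and 2.50 CPM in the wild-type mice, at 2.40, 4.19 and 2.81 CPM in the cluster knockout mice and at 2.46, 3.66 and 4.46 CPM in the *Ms4a6c* knockout mice, where it reached its highest value of the 9. *Bst2* was at 6.26, 5.16 and 6.49 CPM in the wild-type mice, at 6.36, 8.67 and 6.42 CPM in the cluster knockout mice and at 6.07, 5.52 and 5.16 CPM in the *Ms4a6c* knockout mice. The cluster knockout values of *Bst2* all lay above those of the *Ms4a6c* knockout. Within the ISG15 system, *Isg15* was at 3.20, 3.72 and 3.53 CPM in the wild-type mice, at 2.40, 4.29 and 4.01 CPM in the cluster knockout mice and at 2.95, 2.98 and 2.68 CPM in the *Ms4a6c* knockout mice. Its *Ms4a6c* knockout values were lower than all wild-type values by a small margin, whereas the cluster knockout mice spanned the range. *Usp18* was at 7.04, 7.71 and 6.94 CPM in the wild-type mice, at 5.91, 9.37 and 4.96 CPM in the cluster knockout mice and at 5.04, 4.84 and 5.61 CPM in the *Ms4a6c* knockout mice. Here too the *Ms4a6c* knockout lay wholly below wild type, and cluster knockout mouse 2 was the highest. *Usp18* overlaps *Gm44148* on the opposite strand, which had 0 to 7 counts per mouse, so its level carries that uncertainty. All 9 *Usp18* counts were whole numbers. *Isg15* has a near copy, 95.2% identical over 482 bases (*AC151275.1*), but all 9 *Isg15* counts were whole numbers, so no division of reads is seen in them.

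**Figure D2:**
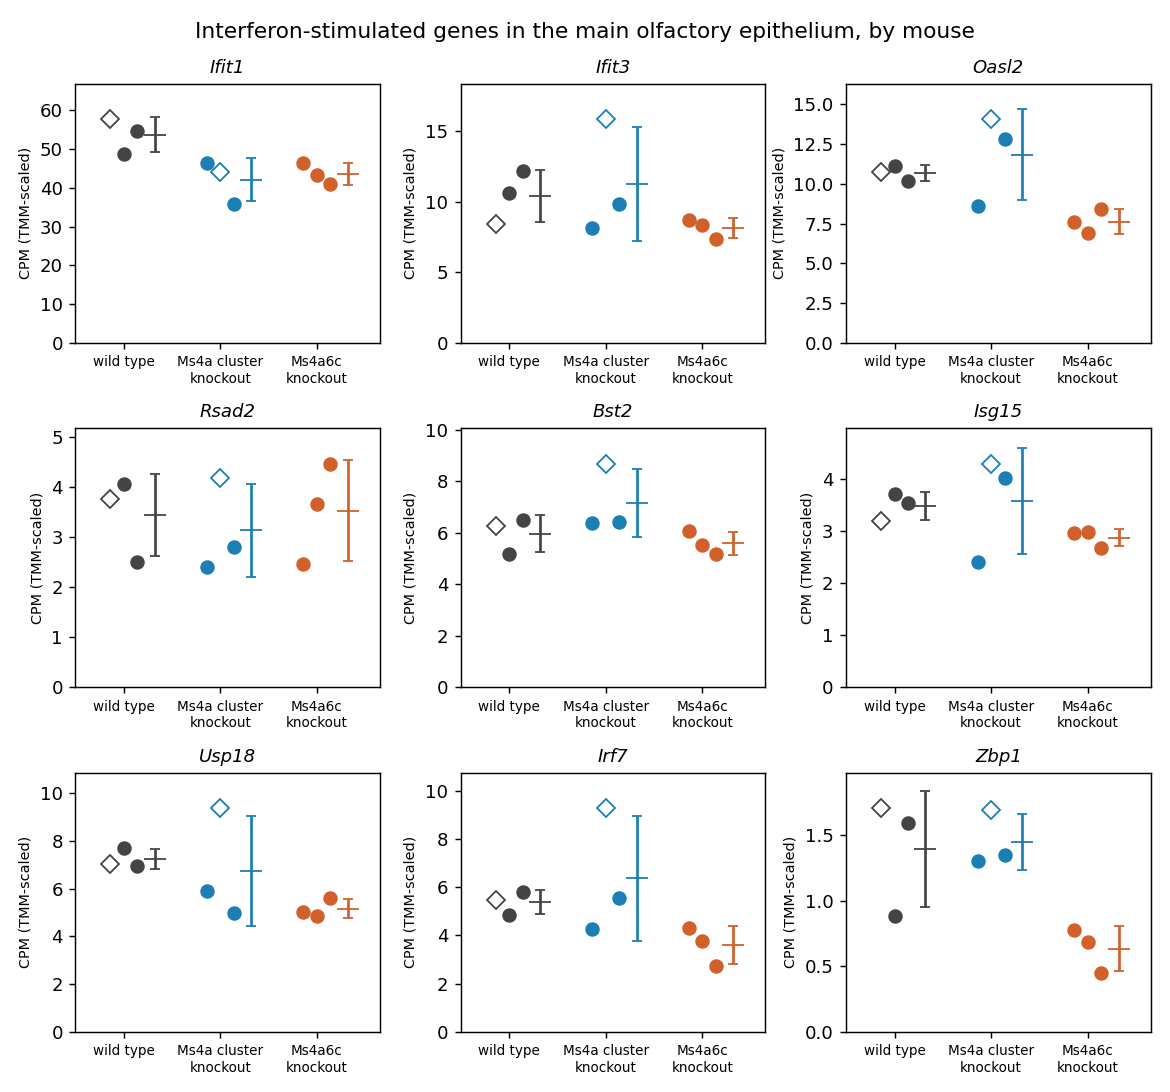
Level of each of the 9 genes in each mouse, in TMM-scaled CPM, with 1 point per mouse and the mean ± SD of the 3 mice of a genotype beside the points. Open diamonds mark the gland-rich libraries, wild type mouse 1 and cluster knockout mouse 2, and the latter is the highest of the 9 mice for 6 genes.

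In the cluster knockout, the interferon-stimulated genes straddled the wild-type level. The log2 fold changes ran from -0.35 (*Ifit1*) to 0.25 (*Bst2*), with 3 of 9 below 0, as 48.2% of all genes were, and a median of 0.05, against 0.01 over all genes tested. The quasi-likelihood test of edgeR called none of the 9 at an adjusted p below 0.05, while it called 0.0258% of all genes. At an unadjusted p below 0.05 the count was 1 of 9, beside 4.93% of all genes. That gene was *Ifit1*, with a mean of 42.1 ± 5.55 CPM (SD, n = 3) against 53.7 ± 4.48 CPM, a log2 fold change of -0.35 (SE 0.10, 95% interval -0.58 to -0.12, adjusted p = 0.968 by edgeR). *Ifit1* was also the only one of the 9 whose 3 values lay wholly below wild type, as 5.15% of all genes did. On plain library size the *Ifit1* groups overlapped. For the other genes the 95% intervals all included 0. They ran from -0.39 to 0.83 for *Irf7*, from -0.69 to 0.78 for *Zbp1* and from -0.24 to 0.52 for *Oasl2*. With 3 mice a group, changes inside those limits are not excluded. Cluster knockout mouse 2 carried much of the spread. Without it and wild type mouse 1, the fold changes of *Irf7*, *Ifit3* and *Isg15* turned negative (-0.11, -0.34 and -0.18 on the log2 scale).

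In the *Ms4a6c* knockout, 8 of the 9 genes had a lower mean than in wild type (50.3% of all genes had a negative fold change), and none of the differences passed the test across all genes. The largest was that of *Zbp1*, at 0.636 ± 0.171 CPM (SD, n = 3) against 1.40 ± 0.444 CPM, a log2 fold change of -1.10 (SE 0.35, 95% interval -1.87 to -0.33, adjusted p = 0.277 by edgeR). *Irf7* followed, at 3.61 ± 0.797 against 5.37 ± 0.497 CPM, with a log2 fold change of -0.56 (95% interval -1.18 to 0.06, adjusted p = 0.514). *Oasl2* was at 7.63 ± 0.763 against 10.7 ± 0.485 CPM, with a log2 fold change of -0.49 (95% interval -0.87 to -0.10, adjusted p = 0.346). The USP18 gene was at 5.16 ± 0.398 against 7.23 ± 0.42 CPM, also -0.49 on the log2 scale (95% interval -0.96 to -0.01, adjusted p = 0.464). *Ifit1* had a smaller but tighter difference of -0.30 (95% interval -0.53 to -0.07, adjusted p = 0.325). The intervals of *Ifit3* (-0.87 to 0.16), *Isg15* (-0.78 to 0.22), *Bst2* (-0.46 to 0.28) and *Rsad2* (-0.63 to 0.68) included 0.

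Counted together, 0 of 9 reached an adjusted p below 0.05 in this comparison, beside 0.435% of all genes. Before adjustment, 4 of 9 (*Zbp1*, *Ifit1*, *Oasl2* and *Usp18*) lay below 0.05, each with the lower mean in the knockout, beside 5.13% of all genes in that direction. The median log2 fold change of the 9 was -0.35, against 0.00 over all genes tested. For 6 of 9 (*Irf7*, *Zbp1*, *Ifit1*, *Oasl2*, *Isg15* and *Usp18*) all 3 knockout values lay below all 3 wild-type values, as they did for 8.55% of all genes. That count depends on the scaling: it was 1 of 9 (*Zbp1*) on plain library size, where wild type mouse 1 moved down and 1.54% of all genes lay wholly below. It was 7 of 9 when both gland-rich libraries were left out, beside 16.5% of all genes. Plain library size shifted the median of all genes to 0.18 and that of the 9 to -0.21, a difference of -0.39, and put *Bst2* above wild type (0.10 on the log2 scale). It also changed the split of calls over all genes from 50 lower and 51 higher to 10 lower and 58 higher. In bulk tissue, fewer cells of a type and less RNA per cell cannot be told apart. Macrophage markers moved with this comparison: 5 of 5 (*Adgre1*, *Csf1r*, *C1qa*, *C1qb* and *Cd68*) had a lower mean in the *Ms4a6c* knockout, none of them at 0, and their summed level was 82.6 to 88.9 CPM against 94.3 to 114 CPM in wild type, while none passed the adjusted threshold. On plain library size those sums overlapped, at 88.5 to 100.1 against 66.2 to 127 CPM. Other lists had the higher level in the *Ms4a6c* knockout. Sustentacular cell markers summed to 6979 to 7537 against 5760 to 6053 CPM, with 3 of 4 at the higher mean and *Ermn* at the lower. Neutrophil markers (*S100a8*, *S100a9*, *Retnlg* and *Ly6g*; 4 of 4 at the higher mean) summed to 48.4 to 141 against 47.2 to 61.8 CPM. None of these 8 passed the adjusted threshold. The olfactory sensory neuron marker *Gng13* did, at 193 against 359 CPM (log2 fold change -0.89, adjusted p = 0.00121 by edgeR). The rest of that list did not share a drop of that size. *Omp* was at 5018 against 4856 CPM and *Adcy3* at 1285 against 1220 CPM. *Gnal* was at 2341 against 2349 CPM and *Cnga2* at 897 against 952 CPM, and the list median was -0.0047 on the log2 scale. The part of these cell types in the result was not tested. *Siglech*, a defining marker of plasmacytoid dendritic cells, the specialised interferon producers, was at 0.771 ± 0.142 CPM in the *Ms4a6c* knockout and 0.69 ± 0.173 CPM in wild type. The whole list for those cells (*Siglech*, *Ccr9*, *Klk1* and *Cox6a2*) summed to 1.52 to 4.01 CPM in the *Ms4a6c* knockout and 1.65 to 173 CPM in wild type, with *Klk1* making up 171 CPM of the highest sum, in the gland-rich mouse 1, and *Cox6a2* at 0 in 2 of the wild-type mice.

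Set directly against each other, the cluster knockout had the higher mean for 7 of the 9 genes (51.4% of all genes had a positive fold change). This comparison shares its *Ms4a6c* knockout mice with the one above, and they are not separate evidence. *Zbp1* differed by 1.15 on the log2 scale (SE 0.35, 95% interval 0.37 to 1.92, adjusted p = 0.311 by edgeR), *Irf7* by 0.78 (SE 0.28, 95% interval 0.16 to 1.40, adjusted p = 0.415) and *Oasl2* by 0.63 (SE 0.17, 95% interval 0.24 to 1.01, adjusted p = 0.263). *Rsad2* and *Ifit1* had the lower mean in the cluster knockout, with log2 fold changes of -0.19 and -0.05. None of the 9 passed the adjusted threshold, which 0.443% of all genes did. Before adjustment 3 of 9 (*Zbp1*, *Oasl2* and *Irf7*) lay below 0.05, each higher in the cluster knockout, beside 4.68% of all genes in that direction. The groups did not overlap for 3 of 9 (*Zbp1*, *Oasl2* and *Bst2*), against 7.86% of all genes with the cluster knockout wholly above. On plain library size the 3 were *Irf7*, *Zbp1* and *Oasl2*, beside 2.01% of all genes, and *Bst2* overlapped. *Oasl2* was the 1 gene of the 9 to pass in any leave-one-out fit: without cluster knockout mouse 1 its log2 fold change was 0.81 (adjusted p = 0.0434, over a range of 0.0434 to 0.960 across the alternatives). The median log2 fold change of the 9 depended on which cluster knockout mouse was left out. It was 0.36 with all mice, 0.53 without mouse 1, 0.16 without the gland-rich mouse 2 and 0.53 without mouse 3. Without both gland-rich libraries it was 0.16. All 5 macrophage markers lay wholly higher in the cluster knockout (summed 101 to 122 CPM) than in the *Ms4a6c* knockout on the TMM scale, whereas on plain library size the sums overlapped, at 86.0 to 124 against 88.5 to 100.1 CPM. Their part in the result was not tested.

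**Figure D3:**
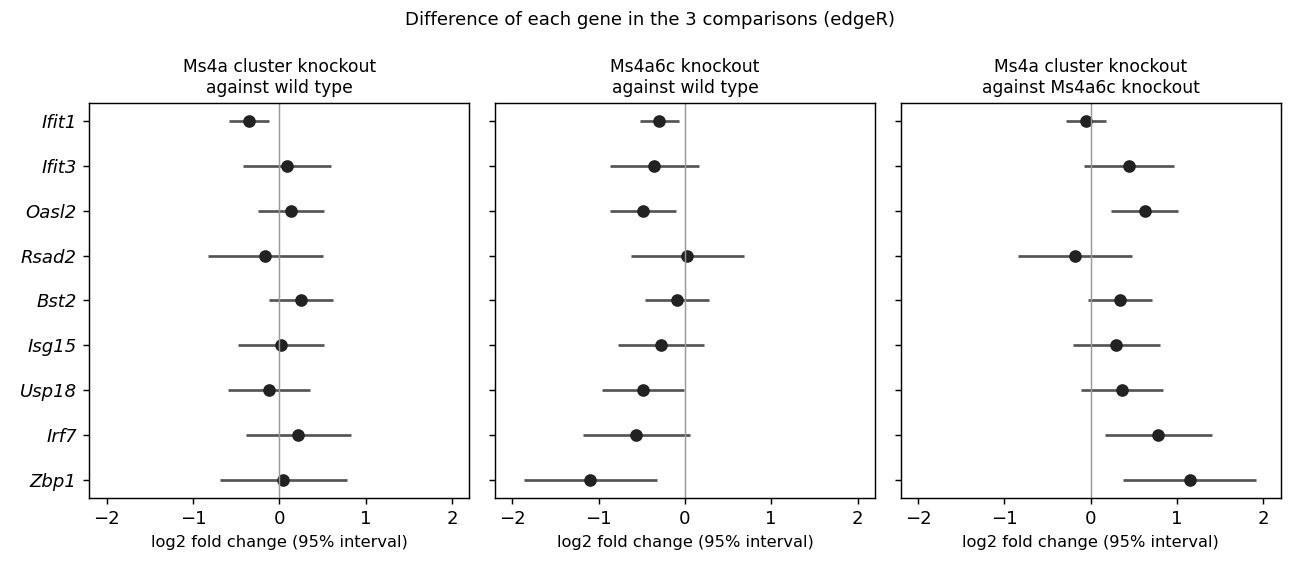
Log2 fold change of each of the 9 genes in the 3 comparisons from edgeR, with bars for the 95% interval and a line at 0. In the *Ms4a6c* knockout against wild type, 8 of 9 points lie below 0 and *Zbp1* lies farthest, at -1.10.

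Mouse by mouse, the genes tended to move together, and cluster knockout mouse 2 stood highest. It had the highest value of the 9 mice for 6 genes (*Irf7*, *Ifit3*, *Oasl2*, *Bst2*, *Isg15* and *Usp18*), and its z-score averaged over the 9 genes was 1.40. The 3 *Ms4a6c* knockout mice averaged -0.57, -0.67 and -0.83, whereas the wild-type mice averaged 0.43, 0.25 and 0.43. The other cluster knockout mice stood at -0.45 and 0.01. Because mouse 2 is gland-rich, its lead depends on scaling: on plain library size it was the highest of the 9 mice for *Irf7* alone. Of the 36 pairs of genes, 30 had a Pearson correlation above 0 over the 9 mice, with a median of 0.519 and a range from -0.30 to 0.892. With the mean of each genotype removed the median was 0.442, and over the 7 mice without the gland-rich libraries it was 0.300. These are descriptions over mice that share the scaling of their library. *Rsad2* broke the pattern in the *Ms4a6c* knockout, where mouse 3 was the lowest of the 9 mice for *Irf7*, *Zbp1* and *Ifit3* but the highest for *Rsad2*.

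**Figure D4:**
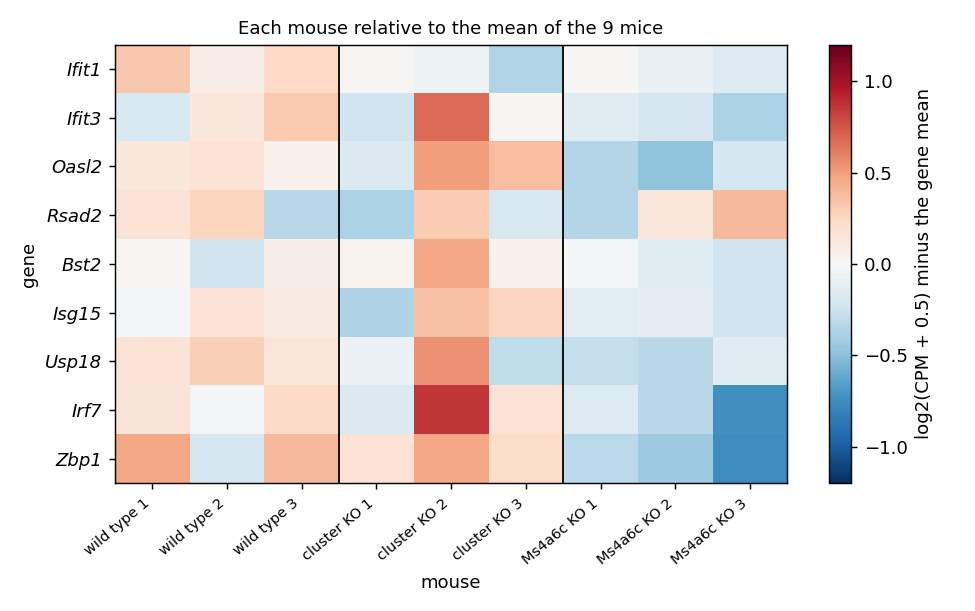
Log2(CPM + 0.5) of each gene in each mouse minus the mean of that gene over the 9 mice, red above the mean and blue below it. Cluster knockout mouse 2 is reddest, led by *Irf7* at 9.27 CPM, and the *Ms4a6c* knockout columns are mostly blue, apart from *Rsad2* in mice 2 and 3.

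The genes whose levels over the 9 mice most resembled the mean pattern of the set were drawn from varied functions. Among 16528 genes with a mean of at least 1 CPM, *Rwdd2b* (Pearson r = 0.966), the VEGF receptor gene *Flt1* (0.960), the cytochrome c oxidase subunit gene *Cox7c* (0.959) and the lysosomal protease gene *Ctsz* (0.956) came first. *AI506816*, *Esd*, the respiratory complex I subunit gene *Ndufs8*, *Pfkfb3*, *Sgce* and *Entpd3* followed, at 0.948 to 0.939. *Flt1* showed the shape of the pattern, with 5.48 CPM in cluster knockout mouse 2, 3.61 to 4.04 CPM in the wild-type mice and 2.49 to 3.04 CPM in the *Ms4a6c* knockout mice. With 9 points and this many candidates such values describe likeness only.

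The wider pathway was examined from lists covering interferon genes, receptors, sensors and further interferon targets. Interferon transcripts themselves were close to absent at this depth. Of 21 interferon genes, 16, *Ifnb1* included, had 0 counts in all 9 mice, and the other 5 totalled 1 count (*Ifna13*, *Ifne* and *Ifnz*) or 3 counts (*Ifnk* and *Ifng*) over all mice. A count of 0 in a library allows up to 3 counts, or 0.136 to 0.215 CPM before TMM scaling, by counting error alone. None of the 21 could be tested. In the other lists, 125 genes were tested and 0 passed the adjusted threshold in any of the 3 comparisons, while 6, 28 and 33 lay below 0.05 before adjustment in the cluster knockout against wild type, the *Ms4a6c* knockout against wild type and the direct comparison. The shares of all genes were 4.93%, 10.5% and 9.38%.

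Receptor and signalling genes had list medians close to 0. *Jak1*, the kinase shared by the interferon receptors, was at 151 CPM in the *Ms4a6c* knockout and 153 CPM in wild type, and *Jak2*, which serves the interferon gamma receptor, at 63.8 and 63.7 CPM. Over the 14 genes of this list the median log2 fold change was -0.05 for the *Ms4a6c* knockout, with a range of -0.43 to 0.19, and for the cluster knockout it was -0.02. The 17 genes of sensing and induction, led by *Irf3*, which switches on interferon transcription, and *Ddx58*, which encodes the RNA sensor RIG-I, had medians of 0.04 and 0.05. The 3 of them with an unadjusted p under 0.05 in the *Ms4a6c* knockout (*Cgas*, *Irf5* and *Mavs*) had the higher mean there, beside 5.34% of all genes in that direction. They are named here after their values were seen. The 4 enzymes of ISG15 conjugation, led by the ligase gene *Trim25* and the E2 gene *Ube2l6*, had a median of -0.02 in the *Ms4a6c* knockout, with a range of -0.35 to 0.15. The lowest of them was *Herc6*, a ligase gene for ISG15, at 3.63, 2.72 and 3.13 CPM in the wild-type mice and 2.58, 2.42 and 2.42 CPM in the *Ms4a6c* knockout mice (log2 fold change -0.35, adjusted p = 0.535 by edgeR), named here after its values were seen. *Trim25* was at 28.4, 25.8 and 26.1 CPM and then at 23.7, 23.2 and 24.1 CPM (-0.18, adjusted p = 0.580). For both, the *Ms4a6c* knockout values lay wholly below wild type on the TMM scale, as they did for 8.55% of all genes. On plain library size the groups overlapped for both. The rest of the list had the higher mean in the *Ms4a6c* knockout, *Ube2l6* at 15.0 against 13.5 CPM and *Uba7* at 8.84 against 8.08 CPM. The 5 partners of ZBP1 in cell death, led by *Ripk1* and *Fadd*, had a median of -0.07 and a range of -0.39 to 0.21.

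The further interferon targets made up the longest list. In the *Ms4a6c* knockout, 75 of them had a median log2 fold change of -0.23, against 0.00 over all genes. None of the 75 passed the adjusted threshold. Before adjustment, 20 of the 75 had a p under 0.05, all with the lower mean in the knockout, beside 5.13% of all genes in that direction. Their most abundant genes, *Ifitm2* and *Ifitm1*, which hinder viral entry, differed by 0.03 and 0.01. The largest of the 20 were *Tgtp1* and *Gbp6*, GTPases that attack the vacuoles of intracellular pathogens, at -1.95 (adjusted p = 0.0926 by edgeR) and -1.74 (adjusted p = 0.0681), named here after their values were seen. Class I antigen presentation, itself induced by interferon, had a median of -0.34 over 10 genes, of which 4 had an unadjusted p under 0.05 with the lower mean in the knockout, beside the same 5.13% of all genes. *H2-K1*, a class I heavy chain gene, was at 97.8 CPM in the *Ms4a6c* knockout and 131 CPM in wild type (log2 fold change -0.43, adjusted p = 0.348), and *H2-D1* at 90.4 and 118 CPM (-0.38, adjusted p = 0.386). In the cluster knockout the same lists had medians of 0.02 and 0.08. Some single genes did pass under other settings, which are given with the limits of processing.

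**Figure D5:**
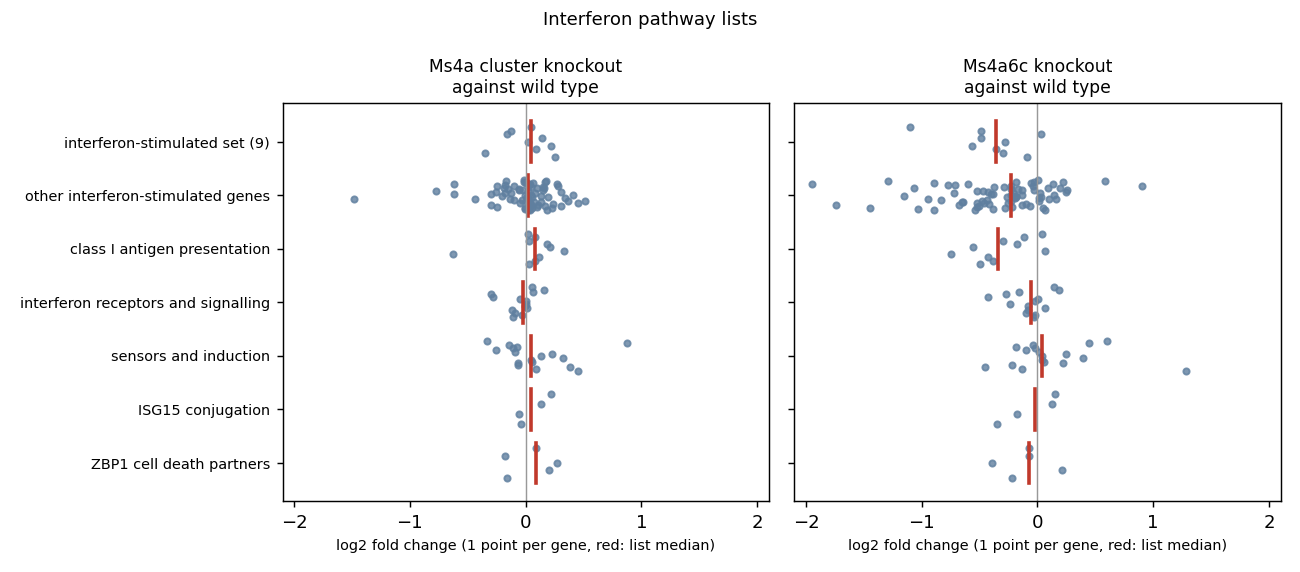
Log2 fold change against wild type of every tested gene in each interferon pathway list, 1 point per gene, with a red bar at the list median, for the cluster knockout (left) and the *Ms4a6c* knockout (right). On the right the medians of the 9-gene set (-0.35), of class I antigen presentation (-0.34) and of the other interferon-stimulated genes (-0.23) lie below 0, and on the left all list medians lie between -0.02 and 0.09.

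Genes that sit beside the 9, or arose from the same duplications, did not follow them in every case. *Ifit1* (chr19:34640871-34650009, plus strand) and *Ifit3* (chr19:34583531-34588731, plus strand; GRCm38, GENCODE M21) belong to a cluster of *Ifit* genes spanning 99.3 kb on chromosome 19, which also carries the *Ms4a* genes 22.91 Mb away. Unlike *Ifit1* and *Ifit3*, *Ifit2* had the higher mean in the *Ms4a6c* knockout, with groups that overlapped. *Ifit2* was at 21.8, 22.4 and 23.4 CPM in the wild-type mice and 25.8, 26.1 and 23.4 CPM in the *Ms4a6c* knockout mice. Its log2 fold change was 0.16 (adjusted p = 0.517 by edgeR). In the cluster knockout *Ifit2* was at 20.7, 21.7 and 19.1 CPM, and the difference between the knockouts was -0.29 (adjusted p = 0.245). *Ifit1bl2*, whose start lies 128 bases from that of *Ifit1* on the other strand, so that the *Ifit1* sequence printed above is also part of its promoter, was at 4.48, 4.33 and 4.66 CPM in the wild-type mice. It was at 3.61, 3.69 and 2.71 CPM in the cluster knockout mice (log2 fold change -0.44, adjusted p = 0.968 by edgeR). These lay wholly below wild type on the TMM scale, like *Ifit1* and 5.15% of all genes, but the groups overlapped on plain library size. In the *Ms4a6c* knockout mice *Ifit1bl2* was at 4.06, 5.77 and 4.65 CPM, which overlapped wild type. *Ifit3b*, the near copy of *Ifit3*, was highest in cluster knockout mouse 2, at 5.88 CPM against 1.85 to 3.30 CPM in the other mice, as *Ifit3* was. *Ifit1bl1* was thinly counted, at 0.191 to 1.19 CPM.

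*Cmpk2*, a mitochondrial nucleotide kinase gene induced by interferon, starts 12.8 kb from the start of *Rsad2* (chr12:26442746-26456452, minus strand). It did not share the pattern of *Rsad2*: *Cmpk2* was at 43.6, 46.8 and 46.0 CPM in the wild-type mice, at 48.0, 41.3 and 48.4 CPM in the cluster knockout mice and at 31.1, 36.7 and 36.6 CPM in the *Ms4a6c* knockout mice. The last 3 were the lowest of the 9 on the TMM scale, with a log2 fold change against wild type of -0.39 (SE 0.09, adjusted p = 0.122 by edgeR), whereas *Rsad2* was at 0.03. On plain library size wild type mouse 1 and cluster knockout mouse 2 lay below them. *Oasl1* lies 11.0 kb from *Oasl2* (chr5:114896936-114912234, plus strand) and was near the detection limit, at 0.15 to 0.897 CPM, so its log2 fold change of 0.25 in the *Ms4a6c* knockout (SE 0.70) says little beside the -0.49 of *Oasl2*. The remaining genes lie apart, *Irf7* at chr7:141262706-141266481, *Zbp1* at chr2:173206612-173218923, *Bst2* at chr8:71534255-71537456 and *Isg15* at chr4:156199424-156200818, all on the minus strand, and *Usp18* at chr6:121245906-121270917 on the plus strand.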

How the data were processed

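RNA was extracted from the main olfactory epithelium of 9 mice, 3 per genotype, and sequenced from poly-A directional libraries. Per the submitters' processing notes, the authors used STAR 2.6.1 and RSEM 1.3.1 on mm10 (GENCODE M25 transcripts) and deposited expected counts per gene, along with DESeq2 1.30.1 as their test. The strand setting is not given in the sources used here. Expected counts were rounded, genes with a summed count under 10 were dropped (23225 tested), and all 9 mice entered 1 edgeR 4.0.16 quasi-likelihood model of genotype with TMM scaling in R 4.3.3, with Benjamini-Hochberg adjustment over all genes tested. The procedure was tested on simulated counts with the same dispersion for every gene and no gland-rich libraries. That test does not cover the uneven libraries seen here. Depth was 13954591 to 21987174 expected counts per library, and intervals for counts of 0 cover counting error only. Each p-value sets a group difference against the spread between mice, estimated over all 3 genotypes and moderated across genes. The 9 genes and the pathway and marker lists were chosen with earlier results of these data known. Named genes were the 9, pathway genes passing the threshold, the 2 most abundant genes of each pathway list, paralogs and neighbours, and the 10 genes most like the set. Replicate numbers come from the labels. Promoters were read from RefSeq (GRCm38.p6), and coordinates and transcript lengths from GENCODE M21, in which all transcripts of the 9 genes matched, and near copies were found with BLAST 2.17.0 (at least 90% identity over 100 bases). Alternatives covered scaling, filters, DESeq2 1.42.0, a replicate block and left-out libraries.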

Additional observations from a re-analysis of the deposited data

How the results depend on the processing

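The count of the 9 genes passing the threshold was 0 under every scaling, filter, test and left-out library tried, except that between the knockouts the range with 1 mouse left out was 0 to 1 (*Oasl2*, log2 fold change 0.81, adjusted p = 0.0434, without cluster knockout mouse 1). Pathway genes passing in the *Ms4a6c* knockout against wild type numbered 0 in the main analysis, 3 with no filter (*Gbp6*, *Tgtp1* and *B2m*), 5 with DESeq2 (*Cmpk2*, *Gbp6*, *Iigp1*, *Tgtp1* and *B2m*), 2 without both gland-rich libraries (*Ifi27* and *Cmpk2*) and 0 to 1 with 1 mouse left out (*Tgtp1* without wild type mouse 2, *Slfn9* without *Ms4a6c* knockout mouse 1). Between the knockouts they numbered 1 with no filter (*B2m*), 4 with DESeq2 (*Cmpk2*, *Gbp6*, *B2m* and *H2-K1*), 2 without both gland-rich libraries (*Ifi27* and *Cmpk2*) and 0 to 1 with 1 mouse left out (*Cmpk2* without cluster knockout mouse 2, *Slfn9* without *Ms4a6c* knockout mouse 1). The cause was not tested. Over all genes, DESeq2 called 18, 345 and 271 in the 3 comparisons, against 6, 101 and 103 with edgeR.

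Small log2 fold changes changed sign. On plain library size these were *Ifit3* (-0.0010) and *Isg15* (-0.0127) in the cluster knockout and *Bst2* (0.10) in the *Ms4a6c* knockout. Without both gland-rich libraries they were *Irf7* (-0.11), *Ifit3* (-0.34) and *Isg15* (-0.18) in the cluster knockout. With 1 mouse left out, the ranges that crossed 0 were, in the cluster knockout, -0.13 to 0.45 for *Irf7*, -0.20 to 0.21 for *Zbp1*, -0.22 to 0.28 for *Ifit3*, -0.40 to 0.0021 for *Rsad2*, -0.12 to 0.25 for *Isg15* and -0.41 to 0.0596 for *Usp18*. They were -0.18 to 0.24 for *Rsad2* in the *Ms4a6c* knockout, and -0.13 to 0.052 for *Ifit1* and -0.42 to 0.0196 for *Rsad2* between the knockouts. Plain library size, the removal of both gland-rich libraries and the summing of near-identical neighbours were chosen after seeing the data. Same-numbered mice did not deviate together (r from -0.537 to 0.107). This cannot decide whether the numbers pair the mice, because deviations within a group of 3 sum to 0. The gland-rich libraries, wild type mouse 1 and cluster knockout mouse 2, also carry different numbers. A replicate block left 0 of the 9 genes and 0 pathway genes passing, and moved the calls over all genes to 2, 71 and 75. With 3 mice a group and 7 to 28 counts for *Zbp1*, small changes were not detectable.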
